A study of Mus musculus with 10 samples.

Results

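The 35 genes described here cover the transcriptional response to low oxygen and the glycolytic pathway, and they were taken by symbol from the 27919 symbols of the expression table. They are named by symbol, with no cut on a measured value, though the list was drawn up when earlier results of these data were known. All 35 were in the table. Their levels were read in tumors grown from B16F10 cells, a pigmented mouse melanoma line. One group consisted of B16F10-Ly86 tumors, made from cells with Ly86 overexpression, and the other of B16F10-Vector tumors, which carried the vector. Ly86 (also called MD-1) encodes a secreted protein that binds the receptor homologue CD180. Mice of both groups alike had received combined anti-PD-1 and anti-CTLA4, antibodies that block inhibitory receptors of T cells, in 4 rounds before harvest, and the tumors were snap-frozen. The strain, the age of the mice, the time of harvest, the promoter of the construct and whether the lines were single clones are not given in the sources used here. The 10 libraries came from 4 Ly86 tumors and 3 Vector tumors, because Ly86 tumor 1, Vector tumor 1 and Vector tumor 2 were each divided, and a first and a second portion of each were sequenced.

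Cells sense oxygen through prolyl hydroxylases that mark the alpha subunits of hypoxia-inducible factor (HIF) for destruction. When oxygen is scarce the marking slows, HIF binds short hypoxia response elements near its target genes, and transcription of glucose transporters, glycolytic enzymes, angiogenic factors and pH regulators increases. Tumors are also known for high glycolysis in the presence of oxygen, so transcripts of these enzymes are abundant in many tumor lines. The 35 genes fall into 6 roles: 5 for oxygen sensing and HIF control, 5 for secreted factors, matrix hydroxylation and pH, 4 for stress and mitophagy, 4 for transport, 14 for the glycolytic enzymes and 3 for kinases that set flux around glycolysis.

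The core of a hypoxia response element is short enough to be searched for directly, and promoter sequence was read from RefSeq (build GRCm38.p6) for the 33 members it holds, which leaves out Ndrg1 and Slc2a3. The 250 bases upstream of each start were searched on both strands for ACGTG and GCGTG, which on the opposite strand read CACGT and CACGC. The palindrome CACGTG counts as ACGTG on each strand. Matches this short are common in any sequence, and a match is a description of these letters, not a binding site. Of 48 member windows (11 members have several starts), 38 held a match (79.2%), compared with 7355 of 13588 windows of the genes tested here (54.1%) and 12679 of all 32851 windows (38.6%). ACGTG stood in 50.0% of member windows, 21.2% of windows of tested genes and 16.6% of all windows, and GCGTG in 52.1%, 43.0% and 28.2%. The windows also differ in base composition: G and C made up 62.4% of bases in members, 59.4% in tested genes and 53.2% in all windows. By gene, 31 of 33 members held a match in at least 1 window, beside 11226 of all 27025 genes with a window (41.5%). A share by gene was not computed for the tested genes, and a gene with several windows has more chances of a match. Gpi1 and Tpi1 held none in these windows.

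Windows of 5 members are printed, chosen by the expression values given below. P4ha1 and Car9 are the members whose Ly86 and Vector tumors did not overlap with Ly86 higher, and Slc16a1 the one with Ly86 lower. Adm and Pfkfb4 had the widest ranges over libraries among the other members with a single start. Capitals mark ACGTG or GCGTG on either strand, and each line runs 5′ to 3′ on the + strand and ends at the base before the start.
P4ha1, chr10:59323046-59323295: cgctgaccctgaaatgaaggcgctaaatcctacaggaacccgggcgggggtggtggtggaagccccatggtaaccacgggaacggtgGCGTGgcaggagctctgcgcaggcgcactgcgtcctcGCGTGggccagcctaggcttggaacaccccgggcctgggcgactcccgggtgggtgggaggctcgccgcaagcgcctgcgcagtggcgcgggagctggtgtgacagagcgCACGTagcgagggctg
Car9, chr4:43506776-43507025: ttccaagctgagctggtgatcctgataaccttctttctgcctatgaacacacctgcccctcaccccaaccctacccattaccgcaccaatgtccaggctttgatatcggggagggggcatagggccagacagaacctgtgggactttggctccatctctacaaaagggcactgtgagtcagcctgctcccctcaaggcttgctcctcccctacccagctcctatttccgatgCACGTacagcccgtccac
Slc16a1, chr3:104638414-104638663: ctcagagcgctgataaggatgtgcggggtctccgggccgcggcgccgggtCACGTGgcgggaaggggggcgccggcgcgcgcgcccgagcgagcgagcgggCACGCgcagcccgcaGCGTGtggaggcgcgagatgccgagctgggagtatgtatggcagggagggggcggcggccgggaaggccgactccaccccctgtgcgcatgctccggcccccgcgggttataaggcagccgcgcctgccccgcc
Adm, chr7:110627407-110627656: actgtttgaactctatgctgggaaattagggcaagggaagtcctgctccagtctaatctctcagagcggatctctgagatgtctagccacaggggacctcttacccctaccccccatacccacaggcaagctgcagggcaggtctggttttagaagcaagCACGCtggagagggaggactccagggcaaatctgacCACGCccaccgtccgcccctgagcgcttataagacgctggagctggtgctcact
Pfkfb4, chr9:108991652-108991901: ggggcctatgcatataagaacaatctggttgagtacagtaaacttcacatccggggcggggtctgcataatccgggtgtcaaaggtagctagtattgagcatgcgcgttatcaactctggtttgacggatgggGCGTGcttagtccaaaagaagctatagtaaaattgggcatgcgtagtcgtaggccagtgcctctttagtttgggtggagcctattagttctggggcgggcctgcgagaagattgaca
P4ha1 has 3 matches and Car9 1, and in both the match nearest to the start is the opposite-strand form CACGT, ending at position -12 in P4ha1 and -14 in Car9. Slc16a1 has 4 matches, all of them at least 130 bases upstream, 2 of which are the palindrome read on each strand. Adm has 2 matches in the CACGC form, and Pfkfb4 has a single GCGTG 113 bases before the start.

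Expression is given as TPM, the share of transcripts scaled to a fixed total per library, which corrects for transcript length, so levels may be compared between genes, and differences are Ly86 minus Vector on the log2(TPM + 1) scale. Read depth is unknown, since TPM keeps no record of it. Library values are listed in a constant order: the first and second portion of Ly86 tumor 1, then Ly86 tumors 2, 3 and 4, against the first and second portion of Vector tumor 1, the first and second portion of Vector tumor 2, and Vector tumor 3. For tests the portions were averaged, leaving 4 Ly86 and 3 Vector tumors. The labels do not say that tumors came from separate mice, so each p-value here reflects only the spread among the sampled tumors, which may be technical. Ly86 itself had 49.2, 81.9, 53.2, 58.9 and 75.4 TPM in the Ly86 libraries, against 6.24, 9.88, 80.9, 7.85 and 30.3 TPM in the Vector libraries. The first portion of Vector tumor 2 carried as much Ly86 mRNA as the Ly86 libraries, unlike its second portion, and the table does not separate transcripts of the construct from those of the endogenous gene. That library also had the highest summed levels of macrophage markers (5476.5 TPM, against 396.9 TPM in the second portion) and fibroblast markers (4828.5 against 117.3 TPM), and the lowest of pigment cell markers (11835.0 against 22264.9 TPM). Pigment cell markers were above 0 in every library, at 16156.7 to 23654.1 TPM in Ly86 libraries and 11835.0 to 22264.9 TPM in Vector libraries.

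Across all 35 genes, Ly86 tumors and Vector tumors had nearly the same mean level, and no member passed the test. The mean log2(TPM + 1) over the members was 7.25 ± 0.061 in Ly86 tumors (SD, n = 4) and 7.17 ± 0.32 in Vector tumors (SD, n = 3), a difference of 0.076. In Ly86 tumors 1 to 4 the mean was 7.29, 7.16, 7.28 and 7.25, against 6.86, 7.50 and 7.15 in Vector tumors 1 to 3. The 4 Ly86 tumors lay between the lowest and the highest Vector tumor. In limma's fit over 14556 genes with Benjamini-Hochberg adjustment, 0 members passed an adjusted p of 0.05, the smallest adjusted p among members being 0.449. Over all genes 0 passed as well (0%), with 1565 at an unadjusted p under 0.05. At an unadjusted p under 0.05 there were 2 members, P4ha1 and Car9, against 10.8% of all genes tested, so the members' share lay below the background. With limma's array weights 1832 genes passed (12.6%), and 3 of the 35 members were among them, a share below that background: P4ha1 at 0.31 (adjusted p = 0.0345), Egln3 at 1.00 (adjusted p = 0.0304) and Slc16a1 at -0.31 (adjusted p = 0.0365), where the estimated weight was 22.9 for Vector tumor 3 and below 1 for the other tumors. Over all 22 alternatives the adjusted p ran up to 1 for each of the 3 genes, and no other alternative called them.

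Of the 35 members 24 were higher and 11 lower in Ly86 tumors, with a median difference of 0.054, beside -0.037 over all genes tested, of which 43.78% were higher. The tumor ranges of 2 members, P4ha1 and Car9, did not overlap with Ly86 higher (4.71% of all genes did so) and those of 1 member, Slc16a1, with Ly86 lower (5.75% of all genes). These counts rest on single Vector tumors and portions. Without Vector tumor 1 only 12 members were higher and the mean difference was -0.081, and without Vector tumor 2 there were 31 and 0.24, with 8 members apart and Ly86 higher (10.4% of all genes were apart in that direction without that tumor). Leaving out the second portion of Vector tumor 1 gave 14 members higher, a median of -0.024 and a mean difference of 0.0045. Leaving out the first portion of Vector tumor 2 gave 17 members higher, a median of -0.022 and a mean difference of 0.059.

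**Figure D1:**
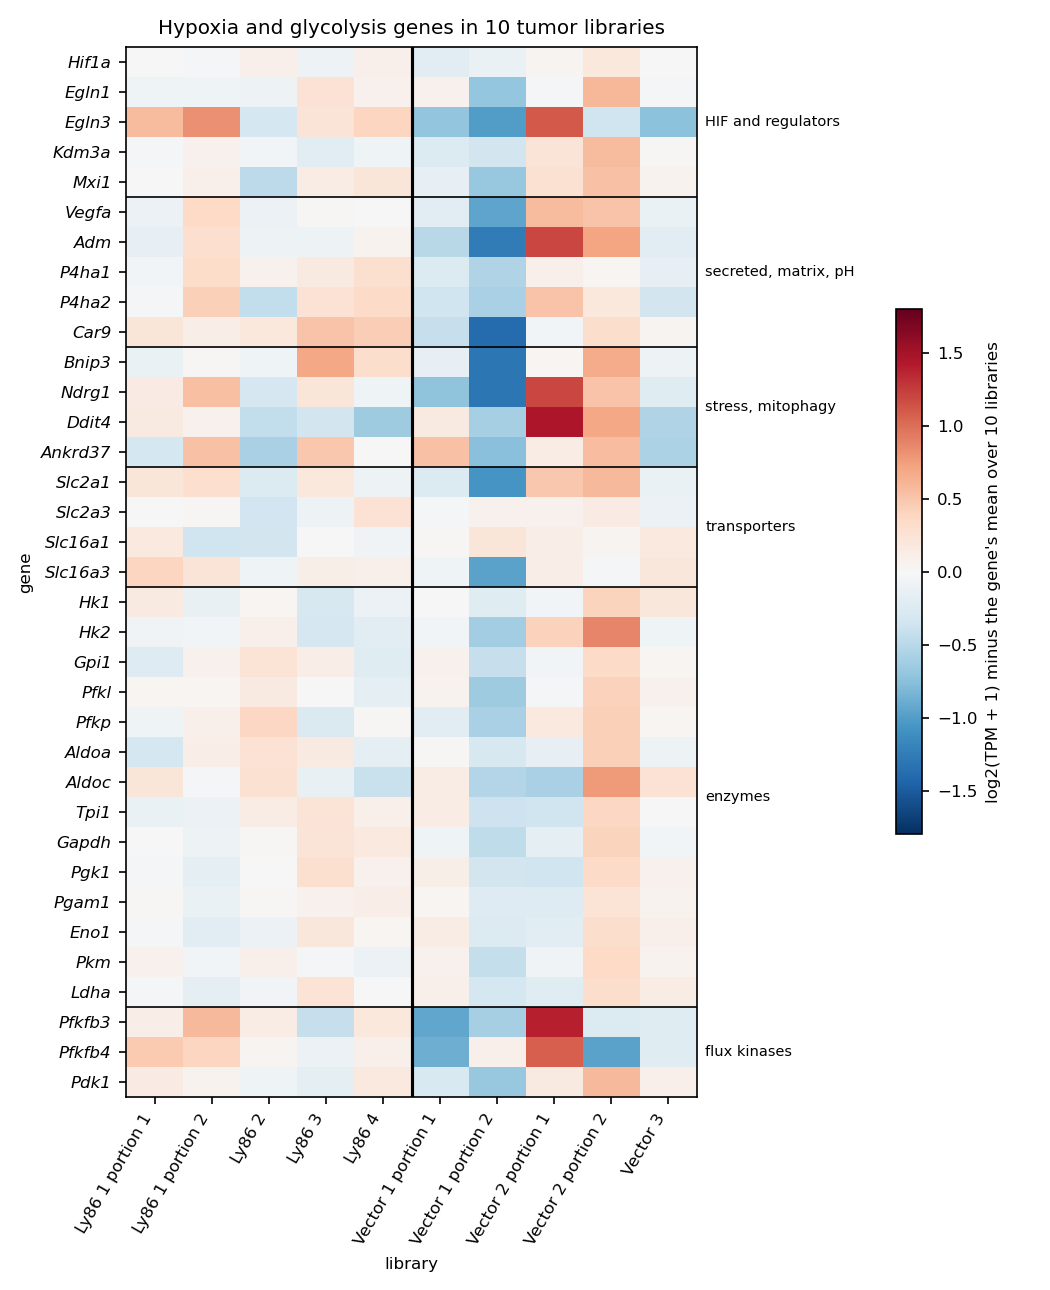
Level of each member in each library as log2(TPM + 1) minus that gene's mean over the 10 libraries, with Ly86 libraries to the left of Vector libraries and genes grouped by role. The second portion of Vector tumor 1 is the lowest library for 25 members, and the second portion of Vector tumor 2 is the highest for 21, the 14 enzymes included.

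**Figure D2:**
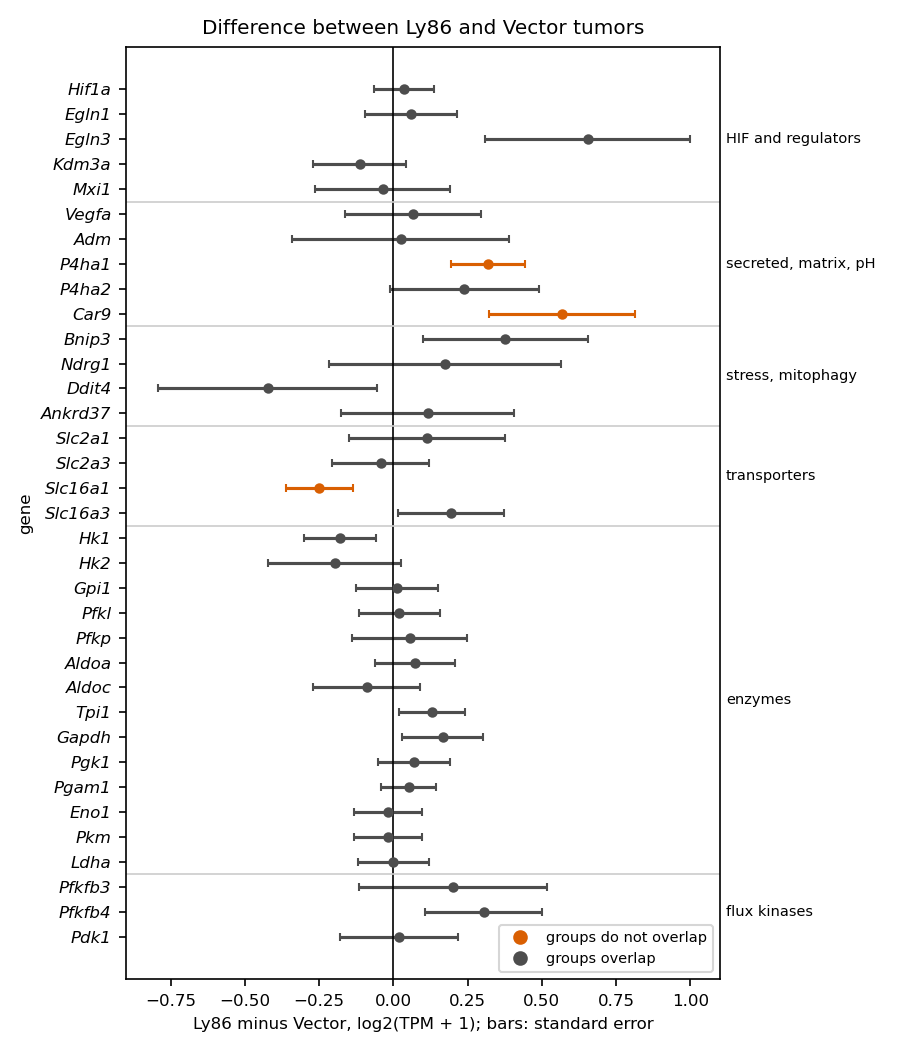
Difference of each member, Ly86 minus Vector on the log2(TPM + 1) scale, as points with bars of 1 standard error from limma, grouped by role, with coloured points for the 3 members whose tumor ranges did not overlap. Values run from -0.42 for Ddit4 to 0.65 for Egln3, and 24 of 35 lie above 0.

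Among the oxygen sensing and HIF control genes, 3 of 5 were higher in Ly86 tumors (median 0.035) and none passed the test. Hif1a, the oxygen-regulated subunit of HIF, had 160.4, 159, 172, 150.4 and 172 TPM in the Ly86 libraries, against 139.8, 149, 166, 184 and 161 TPM in the Vector libraries. These levels were similar in all libraries, with a highest-to-lowest ratio of 1.32, and the difference was 0.035 (SE 0.10, limma adjusted p = 0.938). Egln3, a HIF prolyl hydroxylase whose transcript is itself induced by hypoxia, had 14.6, 17.6, 7.46, 11.4 and 12.8 TPM in the Ly86 libraries, against 5.45, 4.25, 21.6, 7.22 and 5.34 TPM in the Vector libraries. Apart from the first portion of Vector tumor 2, which was the highest library of all, every Vector library was below every Ly86 library. Its difference of 0.65 (SE 0.35, limma adjusted p = 0.528) was the largest among the members, and by tumor the groups overlapped. It was 0.43 without Vector tumor 1, 1.04 without Vector tumor 2 and 0.33 with first portions alone.

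Kdm3a, a histone H3 lysine demethylase and HIF target, had 101, 108, 99.2, 90.2 and 97.4 TPM in the Ly86 libraries, against 86.2, 81.6, 121, 153 and 104 TPM in the Vector libraries. The Vector tumors lay on both sides of the Ly86 tumors, and the difference was -0.11 (SE 0.16, limma adjusted p = 0.832). Egln1, the main HIF prolyl hydroxylase, ranged from 86.4 to 110.5 TPM in Ly86 libraries and from 56.7 to 140.7 TPM in Vector libraries. Mxi1, a MAX-binding antagonist of MYC, ranged from 31.8 to 52.0 TPM in Ly86 libraries and from 27.3 to 64.6 TPM in Vector libraries. For both, the Ly86 range lay inside the Vector range. The difference of Hif1a was -0.038 without Vector tumor 1 and that of Kdm3a 0.066 without Vector tumor 2, each with the opposite sign, and Kdm3a was -0.28 without Vector tumor 1. By role, 1 of 5 genes was higher without Vector tumor 1 and 5 of 5 without Vector tumor 2, and under quantile normalization the count was 4 of 5.

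The genes for secreted factors, matrix and pH include P4ha1 and Car9, and 5 of 5 were higher in Ly86 tumors, with a median of 0.24. Tumor ranges apart with Ly86 higher, as in these 2 of 35 members, were also found in 4.71% of all genes. P4ha1, a catalytic subunit of the prolyl hydroxylase that matures collagen, had 70.5, 92.1, 77.4, 81.7 and 89.5 TPM in the Ly86 libraries, against 61.8, 50.3, 78.5, 75.3 and 66.2 TPM in the Vector libraries. By tumor the lowest Ly86 value was 6.292 and the highest Vector value 6.283 on the log2(TPM + 1) scale, so the ranges were separated by a narrow gap, and single libraries overlapped. The means were 6.38 ± 0.088 in Ly86 tumors (SD, n = 4) and 6.06 ± 0.23 in Vector tumors (SD, n = 3). The difference was 0.32 (SE 0.12, limma p = 0.0331, adjusted p = 0.449), and the two-sided exact permutation test over 35 assignments gave its smallest possible p, 0.0286. Among single members this test is printed only for P4ha1, Car9 and Slc16a1, which were picked because their tumor ranges did not overlap. Such ranges by themselves put its p at or near that minimum, so it adds no support. It is not adjusted over the 35 members.

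Car9, a cell-surface carbonic anhydrase that acidifies the space outside hypoxic cells, had 122, 113, 118, 149.6 and 141 TPM in the Ly86 libraries, against 78.1, 39.2, 101, 130.0 and 107 TPM in the Vector libraries. Vector tumor 1 was the lowest, and the second portion of Vector tumor 2 reached the range of the Ly86 libraries. By tumor the lowest Ly86 value was 6.88 and the highest Vector value 6.85. The means were 7.04 ± 0.18 in Ly86 tumors (SD, n = 4) and 6.48 ± 0.57 in Vector tumors (SD, n = 3), a difference of 0.57 (SE 0.25, limma p = 0.0493, adjusted p = 0.463; exact permutation p = 0.0286). Leaving out Vector tumor 1 gave 0.24 for Car9 and 0.20 for P4ha1. Under median-of-ratios scaling neither gene's groups were apart. Across the 5 genes, 3 were higher without Vector tumor 1.

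Vegfa, the main angiogenic growth factor, had 125, 173, 125, 137 and 135 TPM in the Ly86 libraries, against 117, 69.4, 199.6, 191 and 123 TPM in the Vector libraries. Both portions of Vector tumor 2 were above every Ly86 library and both portions of Vector tumor 1 below every one of them, and the difference was 0.066 (SE 0.23, limma adjusted p = 0.947). It was -0.19 when Vector tumor 1 was left out and 0.36 when Vector tumor 2 was. Adm, which encodes the vasodilator peptide adrenomedullin, had 24.3, 33.3, 25.1, 25.3 and 28.1 TPM in the Ly86 libraries, against 18.8, 10.7, 63.1, 44.6 and 23.6 TPM in the Vector libraries. Here too the Ly86 libraries were close together and the Vector libraries spread to both sides, by 5.91-fold between the highest and the lowest. P4ha2, the other catalytic subunit of collagen prolyl hydroxylase, ranged from 32.0 to 59.3 TPM in Ly86 libraries and from 28.9 to 63.0 TPM in Vector libraries. Fibroblasts make most collagen, and the summed fibroblast markers were 993 to 2736.5 TPM in Ly86 libraries, against 139.9, 442.4, 4828.5, 117.3 and 780.6 TPM in Vector libraries, with all 11 markers higher in Ly86 tumors by mean. The part of fibroblasts in the P4ha1 value was not tested. In bulk tumor RNA, fewer cells of a type and less RNA per cell cannot be told apart.

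**Figure D3:**
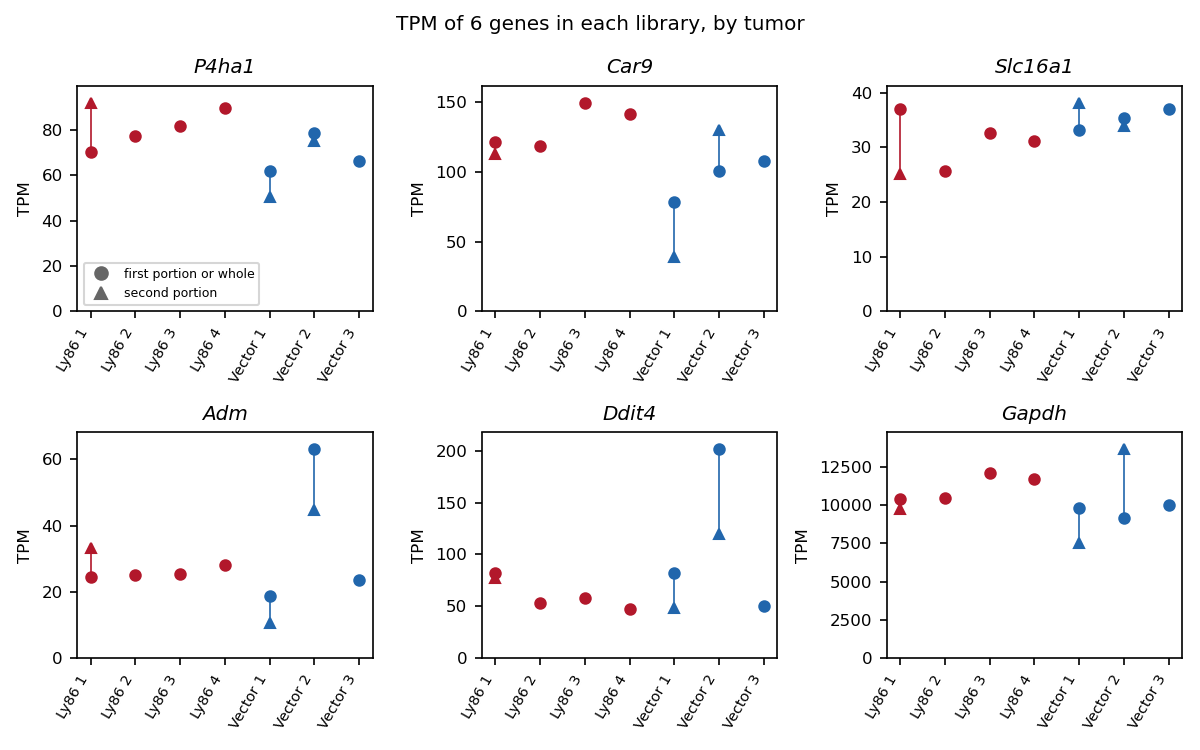
TPM of 6 members in each library, as points by tumor with Ly86 tumors left of Vector tumors, each gene on its own axis from 0; triangles mark second portions and lines join the portions of a tumor. The portions of Vector tumors 1 and 2 lie far apart for Car9, Adm, Ddit4 or Gapdh, as for Car9 with 78.1 and 39.2 TPM in Vector tumor 1.

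The stress and mitophagy genes gave 3 of 4 higher in Ly86 tumors (median 0.14). Bnip3, a mitochondrial receptor for mitophagy, had 263, 290.1, 269, 464 and 355 TPM in the Ly86 libraries, against 257, 115, 293, 452 and 268 TPM in the Vector libraries. Ly86 tumor 3 and the second portion of Vector tumor 2 were the highest and the second portion of Vector tumor 1 the lowest, and the difference was 0.38 (SE 0.28, limma adjusted p = 0.651). Dropping Vector tumor 1 gave 0.091, dropping Vector tumor 2 gave 0.63 and dropping Ly86 tumor 3 gave 0.22. Ddit4 (REDD1), an inhibitor of mTORC1 signalling, had 82.4, 77.7, 53.4, 58.1 and 46.8 TPM in the Ly86 libraries, against 81.8, 48.0, 202, 119 and 49.8 TPM in the Vector libraries. The 2 portions of Vector tumor 2 were above every other library, and the difference of -0.42 (SE 0.37, limma adjusted p = 0.708) became 0.063 without that tumor. Without Vector tumor 3 it was -0.75. The count of higher genes was 2 of 4 without Vector tumor 1 and 4 of 4 without Vector tumor 2.

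Ndrg1, a hypoxia-responsive gene linked to growth arrest and differentiation, ranged from 46.8 to 85.1 TPM in Ly86 libraries and from 23.0 to 135.2 TPM in Vector libraries, a 5.87-fold spread. Ankrd37, a small ankyrin-repeat HIF target, ranged from 8.40 to 19.3 TPM in Ly86 libraries and from 7.42 to 19.8 TPM in Vector libraries. Of the 4 genes, Ndrg1 and Ddit4 were highest in the first portion of Vector tumor 2 and Bnip3 and Ankrd37 were not.

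Of the transport genes 2 of 4 were higher in Ly86 tumors (median 0.035), and the 2 lactate carriers differed in sign. Slc16a1 (MCT1), a proton-coupled lactate carrier found in most cells, had 37.0, 25.2, 25.8, 32.6 and 31.2 TPM in the Ly86 libraries, against 33.2, 38.2, 35.5, 33.9 and 37.0 TPM in the Vector libraries. By tumor all 4 Ly86 values (4.74 to 5.07 on the log2 scale) were below the 3 Vector values (5.16 to 5.25), although the first portion of Ly86 tumor 1 lay among the Vector libraries. The means were 4.95 ± 0.14 in Ly86 tumors (SD, n = 4) and 5.20 ± 0.046 in Vector tumors (SD, n = 3). The difference was -0.25 (SE 0.11, limma p = 0.0572, adjusted p = 0.473; exact permutation p = 0.0571). Under median-of-ratios scaling, quantile normalization or with first portions alone, its groups overlapped.

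Slc16a3 (MCT4), a HIF target that exports lactate from glycolytic cells, had 253, 228, 184, 209.6 and 206 TPM in the Ly86 libraries, against 184, 99.4, 211, 191 and 223 TPM in the Vector libraries. Apart from the second portion of Vector tumor 1, at 99.4 TPM, the Vector libraries lay within the Ly86 range, and the difference was 0.19 (SE 0.18, limma adjusted p = 0.722). Without Vector tumor 1 it was -0.020, and then 0 of the 4 transporters were higher in Ly86 tumors. Without Vector tumor 3 it was 0.34. Slc2a1 (GLUT1), a widely expressed HIF-responsive glucose transporter, ranged from 84.1 to 123.5 TPM in Ly86 libraries and from 47.1 to 149.6 TPM in Vector libraries. Slc2a3 (GLUT3), a high-affinity glucose transporter, stayed between 11.5 and 17.9 TPM in Ly86 libraries and between 13.6 and 16.4 TPM in Vector libraries.

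The glycolytic enzymes were abundant and close to level between the groups: 8 of 14 were higher in Ly86 tumors, with a median of 0.016. The count was 11 of 14 under median-of-ratios scaling, which turned Eno1, Pkm and Ldha, and 5 of 14 without Vector tumor 1. Their mean log2(TPM + 1) was 9.43 ± 0.079 in Ly86 tumors (SD, n = 4) and 9.43 ± 0.17 in Vector tumors (SD, n = 3), a difference of 0.0053. With Aldoa counted as listed, which is a mean of 2 entries of that symbol, they made up 2.50 to 3.06% of all TPM in Ly86 libraries and 2.06 to 3.46% in Vector libraries. Gapdh, which oxidises glyceraldehyde phosphate, had 10439.4, 9753.3, 10476.9, 12143.7 and 11740.6 TPM in the Ly86 libraries, against 9803.2, 7553.3, 9153.6, 13686.4 and 10014.1 TPM in the Vector libraries. It accounted for 38.2 to 41.5% of the enzymes' TPM in Ly86 libraries and 35.7 to 39.5% in Vector libraries. Its difference was 0.17 (SE 0.14, limma adjusted p = 0.696), and the highest library was the second portion of Vector tumor 2. Omitting the first portion of Vector tumor 2 gave 0.069, omitting both its portions 0.26, and omitting Vector tumor 1 gave 0.066.

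Hk1, one of the hexokinases that phosphorylate incoming glucose, had 139, 113, 127, 102 and 116 TPM in the Ly86 libraries, against 124, 106, 119.5, 165 and 144 TPM in the Vector libraries. The groups overlapped, with a difference of -0.18 (SE 0.12, limma adjusted p = 0.620), which was -0.28 without Vector tumor 1 and -0.11 without Ly86 tumor 3. Hk2, the hypoxia-inducible hexokinase, was lower than Hk1 in 8 of 10 libraries and exceeded it only in the portions of Vector tumor 2, at 121.0 and 167.9 TPM. Among the enzymes of the later steps, Eno1 (enolase) ranged from 2871.3 to 3801.7 TPM in Ly86 libraries and from 2777.9 to 4096.9 TPM in Vector libraries. Pkm (pyruvate kinase) ranged from 2717.3 to 3110.4 TPM in Ly86 libraries and from 2164.9 to 3724.8 TPM in Vector libraries. Pgk1 (phosphoglycerate kinase) ranged from 2417.2 to 3335.8 TPM in Ly86 libraries and from 2138.7 to 3489.3 TPM in Vector libraries. Ldha, which turns pyruvate into lactate, averaged 11.2 ± 0.15 in Ly86 tumors and 11.2 ± 0.13 in Vector tumors on the log2 scale (SD, n = 4 and 3).

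Tpi1 (triose phosphate isomerase) ranged from 2050.0 to 2637.7 TPM in Ly86 libraries and from 1710.5 to 2881.8 TPM in Vector libraries. Pgam1 (phosphoglycerate mutase) had the narrowest spread of the enzymes, 1.39-fold over the 10 libraries. Gpi1 (glucose phosphate isomerase) ranged from 812.9 to 1130.7 TPM in Ly86 libraries and from 716.9 to 1211.7 TPM in Vector libraries. The phosphofructokinases Pfkl and Pfkp, which catalyse the committed step, had 179.1 to 224.1 TPM and 197.1 to 305.8 TPM in Ly86 libraries, against 127.9 to 267.1 TPM and 157.0 to 316.9 TPM in Vector libraries. For each of these enzymes the Ly86 range lay inside the Vector range. Aldoc (aldolase C) ranged from 48.2 to 77.4 TPM in Ly86 libraries and from 42.0 to 109.4 TPM in Vector libraries. Aldoa (aldolase A) is listed at 67.5 to 101.3 TPM in Ly86 libraries and at 68.5 to 113.1 TPM in Vector libraries. The deposited Aldoa value is a log2-scale mean of 2 entries with that symbol, so its level cannot be set beside those of the other enzymes.

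**Figure D4:**
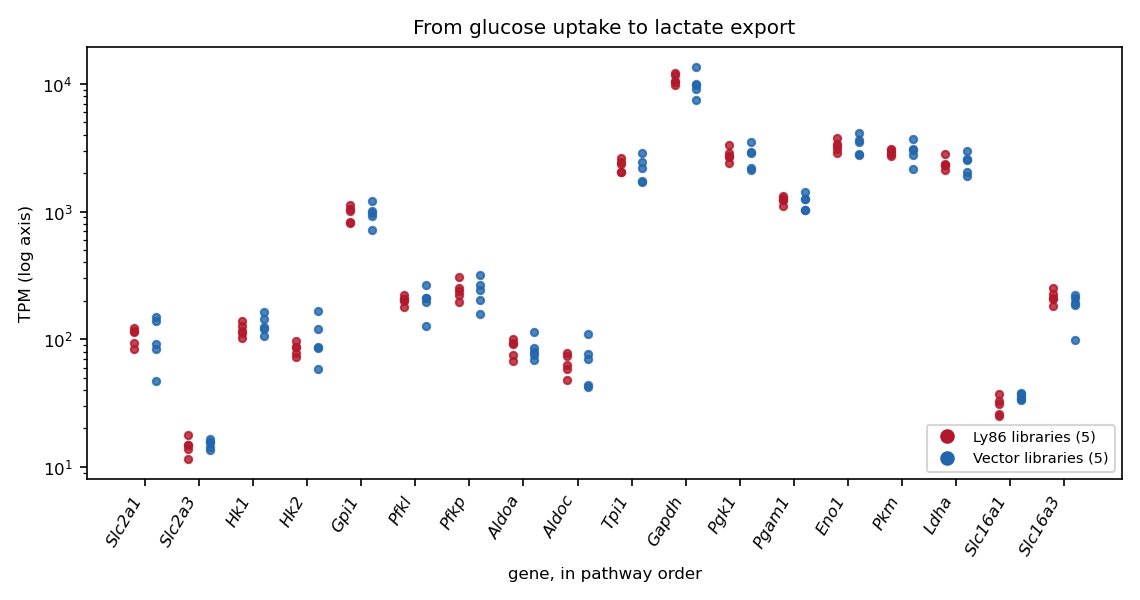
TPM of the glucose transporters, the 14 enzymes and the lactate carriers in each library, on a log axis and in pathway order, with the 5 Ly86 libraries drawn to the left of the 5 Vector libraries of each gene. Gapdh is the highest in both groups, Slc2a3 the lowest, and the groups overlap by library for every gene shown.

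The kinases that set flux around glycolysis were all 3 higher in Ly86 tumors, with a median of 0.20 and none past the test. Pfkfb3, which makes a sugar phosphate that activates phosphofructokinase, had 26.6, 37.3, 27.0, 18.0 and 28.0 TPM in the Ly86 libraries, against 12.3, 15.8, 66.3, 20.6 and 20.8 TPM in the Vector libraries. Its highest library was the first portion of Vector tumor 2 and its lowest the first portion of Vector tumor 1, and the difference was 0.20 (SE 0.32, limma adjusted p = 0.861). Pfkfb4, another enzyme of this kind, had 7.85, 7.40, 5.61, 4.96 and 5.84 TPM in the Ly86 libraries, against 2.47, 5.83, 12.5, 2.29 and 4.48 TPM in the Vector libraries. The Ly86 libraries lay between 4.96 and 7.85 TPM, while Vector libraries reached above and below them, with a difference of 0.30 (SE 0.20, limma adjusted p = 0.604). It was 0.64 without the first portion of Vector tumor 2, 0.20 without Vector tumor 1 or without Ly86 tumor 1, 0.14 with first portions alone and 0.15 under quantile normalization.

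Pdk1, a kinase that shuts pyruvate out of the mitochondrial citric acid cycle, had 73.2, 68.8, 62.0, 58.3 and 74.4 TPM in the Ly86 libraries, against 54.0, 40.4, 73.4, 98.8 and 69.7 TPM in the Vector libraries. Vector libraries lay both above and below the Ly86 range, and the difference was 0.019 (SE 0.20, limma adjusted p = 0.986). The sign of the smaller differences depended on single tumors: without Vector tumor 1 that of Pfkfb3 was -0.12 and that of Pdk1 -0.22, and Pdk1 was also negative without Ly86 tumor 1 (-0.015) or Ly86 tumor 4 (-0.037). Pfkfb3 was 0.56 without Vector tumor 2, 0.36 without Ly86 tumor 3 and 0.10 without Ly86 tumor 1. Of the 3 kinases, 1 was higher in Ly86 tumors without Vector tumor 1.

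Where a step has paired isoforms, their ratio within a library was set beside the groups, 7 ratios in all. The ratio of Slc16a3 to Slc16a1 was 6.84, 9.04, 7.13, 6.43 and 6.60 in the Ly86 libraries, against 5.55, 2.60, 5.96, 5.63 and 6.03 in the Vector libraries. No library of either group fell in the range of the other. On the log2 scale the ratio averaged 2.80 ± 0.13 in Ly86 tumors (SD, n = 4) and 2.35 ± 0.37 in Vector tumors (SD, n = 3), a difference of 0.45. The exact permutation p was 0.0286, the lowest value the design can give, or 0.200 after Benjamini-Hochberg adjustment over the 7 ratios. Tumor ranges that do not overlap put this p at or near its minimum by themselves, so it adds no support. A lone ratio at that minimum cannot adjust below 0.200 over 7 ratios. Slc16a1 had itself been picked above for tumor ranges that did not overlap. The share of separated ratios among other gene pairs of the table was not computed. Without Vector tumor 1 the difference was 0.24, with first portions alone 0.21 and with second portions alone 0.70.

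The other ratios overlapped. Egln1 to Egln3 was 4.98 to 11.6 in Ly86 libraries and 4.15 to 19.5 in Vector libraries (exact permutation p = 0.143, adjusted 0.5). Slc2a1 to Slc2a3 was 5.23 to 8.25 in Ly86 libraries and 3.02 to 9.12 in Vector libraries, and Pfkfb3 to Pfkfb4 was 3.39 to 5.04 in Ly86 libraries and 2.71 to 8.98 in Vector libraries. P4ha1 exceeded P4ha2 in all 10 libraries, by 1.55 to 2.42 times in Ly86 libraries and 1.25 to 1.92 times in Vector libraries. Hk1 to Hk2 was 1.29 to 1.60 in Ly86 libraries and 0.983 to 1.82 in Vector libraries. Pfkp to Pfkl was nearly the same in both groups, 0.979 to 1.36 in Ly86 libraries and 0.973 to 1.36 in Vector libraries.

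The spread of the members between tumors was a second measure of the groups, given as a description. The SD over tumors was larger in Vector for 26 of 35 members, against 47.1% of all genes tested, and the members' median SD was 0.166 among Ly86 tumors and 0.293 among Vector tumors. Over all genes it was 0.225 among Ly86 tumors and 0.213 among Vector tumors. Among the enzymes the count was 7 of 14, so most of the 26 were other members. Vector tumor 2 was the highest tumor for 15 members and Vector tumor 1 the lowest for 25. The share of all genes at these tumor extremes was not computed, so the counts have no background here. With 3 Vector tumors, an SD is itself imprecise.

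The portions of a tumor show how members vary within it, and the enzymes are given there apart from the other members. In Vector tumor 1, 30 members were higher in the first portion and 5 in the second, with a median of 0.44 (first minus second, log2), although 29.6% of all genes were higher in the first portion. All 14 enzymes were higher in that first portion (median 0.42). Bnip3 and Ankrd37 differed by more than 2-fold on the log2(TPM + 1) scale, while 5.15% of all genes did. Pfkfb4, at 2.47 and 5.83 TPM, was just inside that limit on this scale (-0.98). In the first and second portion Bnip3 had 256.7 and 115.0 TPM and Ankrd37 had 19.3 and 7.42 TPM.

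In Vector tumor 2 all 14 enzymes were higher in the second portion (median -0.50), and the other 21 members were divided, 11 higher in the first portion and 10 in the second. Past 2-fold on the log2(TPM + 1) scale were Egln3, Pfkfb3 and Pfkfb4, higher in the first portion, and Aldoc, higher in the second (42.0 against 109.4 TPM), beside 19.2% of all genes. Pfkfb4 had 12.5 TPM in the first portion and 2.29 TPM in the second. Macrophage and fibroblast markers were also far higher in that first portion, as given above, and their part in these differences was not tested. In Ly86 tumor 1, 17 members were higher in the first portion and 18 in the second, and no member differed by 2-fold on that scale (6.32% of all genes did). Summed keratinocyte markers, by contrast, were 2822.7 TPM in the first portion and 183.2 TPM in the second portion of that tumor, and skeletal muscle markers 27.2 and 1184.0 TPM.

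**Figure D5:**
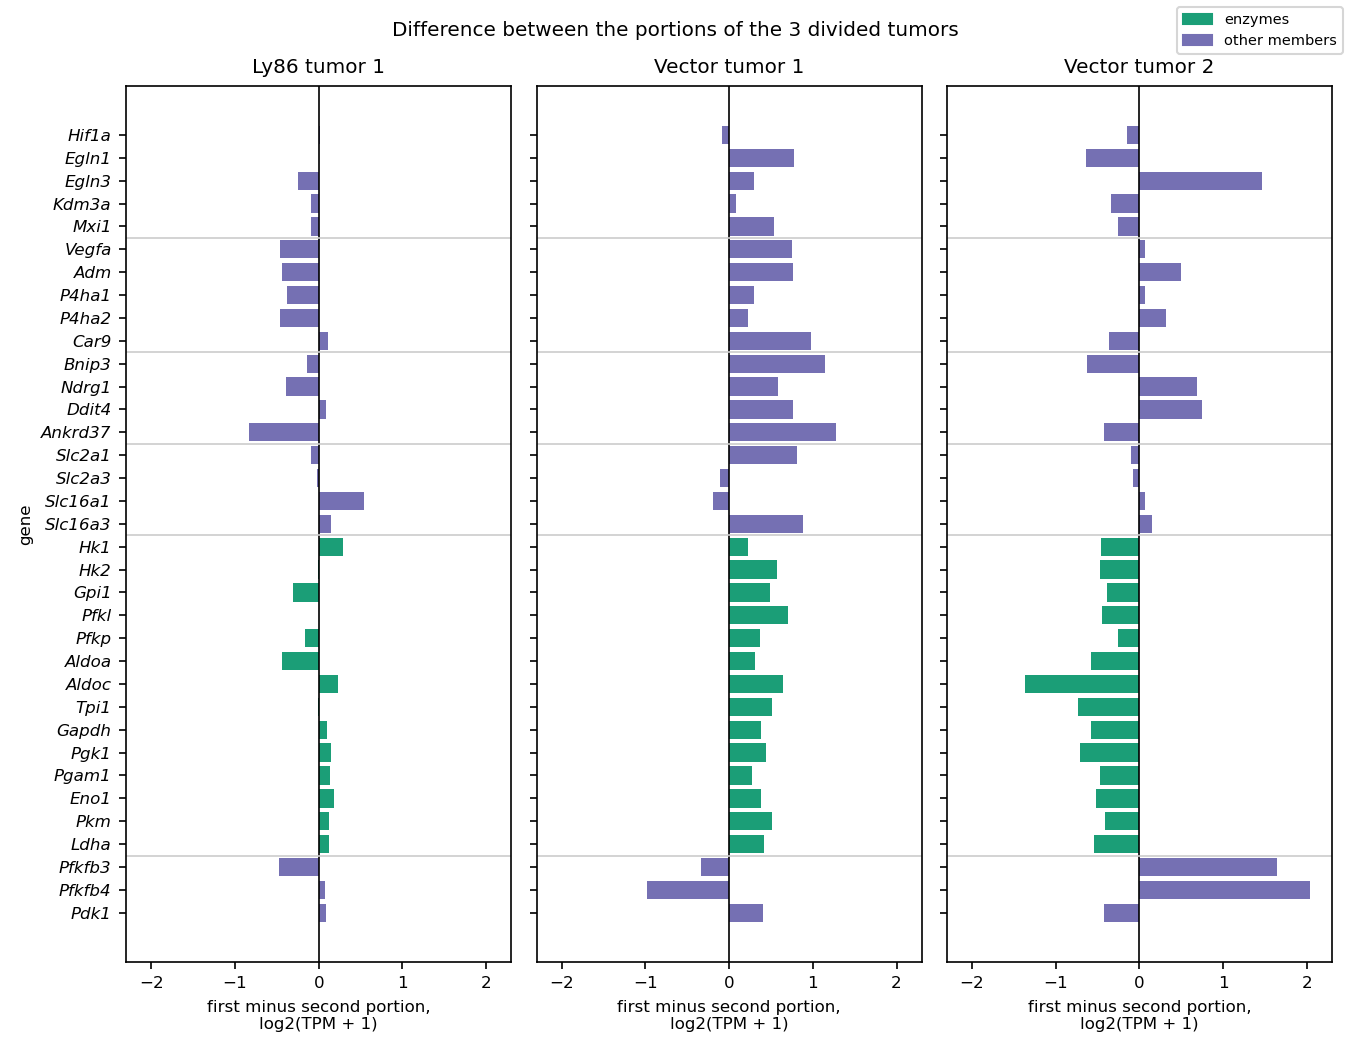
First minus second portion of the 3 divided tumors for each member, in log2(TPM + 1), with Ly86 tumor 1 left of the Vector tumors and enzymes coloured apart from the other members. The 14 enzyme bars all point right in Vector tumor 1 and all left in Vector tumor 2, whereas Egln3, Pfkfb3 and Pfkfb4 point right in Vector tumor 2.

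Single libraries accordingly set the extremes. The second portion of Vector tumor 1 was the lowest library for 25 of 35 members (10 enzymes and 15 others), against 6.86% of all genes tested. The second portion of Vector tumor 2 was the highest for 21 members including all 14 enzymes, against 9.78% of all genes, and its first portion for 8 members, none of them an enzyme (19.7% of all genes). The ratio of the highest to the lowest library in TPM had a median of 1.69 for enzymes, 2.66 for the other members and 2.01 for all genes tested. After Adm and Ndrg1, the widest were Pfkfb4 (5.47), Pfkfb3 (5.40), Egln3 (5.09), Ddit4 (4.31), Bnip3 (4.04) and Car9 (3.82).

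Other genes of the same pathways gave no call in either direction. In the rest of the HIF pathway, 7 of 13 tested genes were higher in Ly86 tumors, with a median of 0.032 and a mean of -0.020. Without Vector tumor 1 the median was -0.073 and without Vector tumor 2 it was -0.053. Arnt, the partner subunit of HIF, had 37.2, 39.6, 39.4, 29.1 and 37.4 TPM in the Ly86 libraries, against 31.3, 37.7, 48.4, 46.6 and 41.7 TPM in the Vector libraries, a difference of -0.18 (SE 0.15). Cul2, the scaffold of the ubiquitin ligase that destroys HIF, had 25.3, 28.5, 32.3, 32.3 and 40.2 TPM in the Ly86 libraries, against 28.5, 26.7, 24.3, 25.2 and 28.6 TPM in the Vector libraries, a difference of 0.26 (SE 0.15). In both genes the tumor ranges overlapped.

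Among other HIF targets, 24 of 38 were higher in Ly86 tumors with a median of 0.076 (17 of 39 and -0.066 without Vector tumor 1). Only 2 of the 38, Lox and Nos2, had an unadjusted limma p under 0.05, a share below the 10.8% of all genes tested. Lox, an enzyme that crosslinks collagen, had 23.3, 66.4, 17.7, 48.8 and 51.0 TPM in the Ly86 libraries, against 1.48, 8.12, 139.5, 0.79 and 20.3 TPM in the Vector libraries, a difference of 1.68 (SE 0.55, limma adjusted p = 0.437). Nos2, the inducible nitric oxide synthase of activated macrophages, had 16.6, 39.1, 21.8, 15.0 and 13.3 TPM in the Ly86 libraries, against 1.06, 1.06, 30.9, 7.62 and 5.36 TPM in the Vector libraries, a difference of 1.68 (SE 0.62, limma adjusted p = 0.441). Among Vector libraries both were highest in the first portion of Vector tumor 2, the library with the most macrophage and fibroblast marker RNA. Macrophage marker sums were 1938.0, 3928.9, 2656.0, 2255.4 and 2803.6 TPM in Ly86 libraries, against 387.8, 631.5, 5476.5, 396.9 and 1660.4 TPM in Vector libraries, and 16 of 16 markers were higher in Ly86 tumors by mean. Their part in the Lox and Nos2 values was not tested.

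The remaining glycolysis genes gave 5 of 15 higher, with a median of -0.022 and a mean of 0.046, and under median-of-ratios scaling 8 of 15 with a median of 0.0086. Hk3, a hexokinase of myeloid cells, had 35.4, 53.9, 43.4, 21.8 and 34.6 TPM in the Ly86 libraries, against 3.78, 2.69, 76.9, 7.35 and 24.8 TPM in the Vector libraries, a difference of 1.34 (SE 0.62, limma adjusted p = 0.483). The first portion of Vector tumor 2 was highest in both Hk3 and the macrophage marker sum, and the other Vector tumor 1 and 2 libraries were lowest in both. The order differed among those low libraries. The second portion of Vector tumor 1 had the least Hk3 (2.69 TPM) but the largest macrophage marker sum of them (631.5 TPM, against 387.8 and 396.9 TPM). The part of macrophages in the Hk3 values was not tested. Adpgk, an ADP-dependent glucokinase, had 33.1 to 44.3 TPM in Ly86 libraries and 34.9 to 46.9 TPM in Vector libraries.

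Around pyruvate entry to the mitochondrion 6 of 12 genes were higher (median 0.011), and the genes with the smallest p were the pyruvate dehydrogenase kinases Pdk2, with 1.43 to 8.29 TPM in Ly86 libraries and 1.15 to 5.33 TPM in Vector libraries, and Pdk3, with 48.5 to 68.8 TPM in Ly86 libraries and 40.8 to 66.5 TPM in Vector libraries. The pentose phosphate branch gave 4 of 7 (median 0.011, mean -0.013), and 5 of 7 under median-of-ratios scaling. Its genes with the smallest p were Rpe, with 25.9 to 31.1 TPM in Ly86 libraries and 21.8 to 31.5 TPM in Vector libraries, and Tkt, with 211.4 to 320.2 TPM in Ly86 libraries and 249.8 to 307.0 TPM in Vector libraries.

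Other cell types and dividing cells were also followed by their markers. T and NK cell markers summed to 101.4 to 224.3 TPM in Ly86 libraries and 14.4 to 335.7 TPM in Vector libraries, with 12 of 12 tested markers higher in Ly86 tumors and Ncr1 at 0 in at least 1 library. Neutrophil markers summed to 14.3 to 90.7 TPM in Ly86 libraries and 2.59 to 105.1 TPM in Vector libraries, with 6 of 6 tested higher and S100a9, Cxcr2, Retnlg and Camp at 0 in at least 1 library. For adipocytes the sums were 80.9 to 277.4 TPM in Ly86 libraries and 15.3 to 787.6 TPM in Vector libraries, with 4 of 6 higher. Summed endothelial markers were 127 to 226 TPM in Ly86 libraries and 111 to 464.6 TPM in Vector libraries, with 4 of 11 higher in Ly86 tumors, and erythroid markers were 190.8 to 512.3 TPM in Ly86 libraries and 269.7 to 2118.2 TPM in Vector libraries, with 0 of 4 higher. Across libraries keratinocyte markers (0 of 10 higher) summed to 2.94 to 2822.7 TPM with Ly86 and 2.60 to 812.1 TPM with Vector, and skeletal muscle markers (1 of 11 higher) to 4.92 to 1184.0 TPM with Ly86 and 24.9 to 343.6 TPM with Vector. Cell cycle markers were 1896.7 to 2462.4 TPM in Ly86 libraries and 1917.5 to 3096.6 TPM in Vector libraries, and none of the 17 was higher in Ly86 tumors. No marker of macrophages, fibroblasts, endothelium, pigment cells or the cell cycle was at 0 in any library. Whether any of these contributed to the members' levels was not tested.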

How the data were processed

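RNA was sequenced from 10 libraries of polyadenylated RNA from B16F10 tumors. The submitters' processing notes name STAR 2.7.10b (an aligner), RSEM 1.3.3 (which estimates abundance) and the mouse build mm39. The deposited values are on a log2 scale. That scale was read from the values: 2 to the power of a value, minus 1, was a multiple of 0.01 (within 1e-04 hundredths) in 99.9% of cases, and each library then totalled 994679 to 996446, so the values are log2(TPM + 1). For 39 genes the values were not such multiples but became whole ten-thousandths after squaring (tolerance 0.02), as a log2-scale mean of 2 entries of 1 symbol does; Aldoa is the only member among them. TPM keeps no read depth, so no counting interval is given, and the number of tumors limits the precision.

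Portions of a divided tumor were averaged on the log2 scale. The 14556 genes whose TPM averaged 1 or more across the 7 tumors entered a fit with limma 3.58.1 in R 4.3.3 (lmFit, eBayes with trend), with Benjamini-Hochberg adjustment over all of them and a threshold of 0.05. Differences on the log2(TPM + 1) scale understate the change of low genes. Single members and isoform ratios were compared by two-sided exact permutation over the 35 assignments of tumors, whose smallest p is 0.0286. Of single members it is printed only where tumor ranges did not overlap, which by itself puts it at or near that minimum. Members and gene lists were chosen with earlier results of these data known. Library values are given for Hif1a and, in each role, for the member with the highest mean TPM and the 2 with the smallest unadjusted p, and of each other pathway list the 2 genes with the smallest unadjusted p are named; Adm was added for its range after its values were seen. Promoter sequence came from RefSeq on build GRCm38.p6, which differs from the build of the expression table and was not joined to it by coordinates. Alternatives were other pseudocounts, filters, scalings and eBayes settings, array weights, a random or replicate block, single portions and leaving out each tumor. The setting without the second portion of Vector tumor 1 was chosen after seeing the data. Plots used Python 3.11.15 and matplotlib 3.10.9.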

Additional observations from a re-analysis of the deposited data

How the results depend on the processing

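No gene passed the threshold in the fit reported, whereas 1832 (12.6%) passed with limma's array weights (3 of them members), whose estimation did not fully converge, 37 with second portions alone, 1 with first portions alone, 3 without the first portion of Vector tumor 2, 1 without the second portion of Vector tumor 1 and 0 to 2 with 1 tumor left out. The count of members higher in Ly86 tumors was 14 without the second portion of Vector tumor 1 and 12 to 31 with 1 tumor left out; it was 27 under median-of-ratios scaling and 25 under quantile normalization. Members apart with Ly86 higher numbered 0 under median-of-ratios scaling (5.41% of all genes) and 2 to 8 with 1 tumor left out (5.71 to 10.4% of all genes). Members apart with Ly86 lower numbered 0 with first portions alone (1.94% of all genes), under median-of-ratios scaling (5.77%) and under quantile normalization (6.76%). They numbered 2 without Vector tumor 1 (8.76% of all genes). With any other tumor left out 1 member was apart, beside 6.94 to 19.2% of all genes, the 19.2% being without Vector tumor 2. The median difference of the members ran from -0.075 to 0.16 and their mean from -0.081 to 0.24 with 1 tumor left out. Signs turned for Hif1a with second portions alone (-0.0060), for Vegfa with first portions alone (-0.13) and without the second portion of Vector tumor 1 (-0.059), for Pfkfb3 with first portions alone (-0.076), and with array weights for Ddit4 (0.21), Slc16a3 (-0.069) and Pdk1 (-0.035). Pdk1 also turned without the first portion of Vector tumor 2 (-0.052) and without the second portion of Vector tumor 1 (-0.049). With 1 tumor left out, differences ran from -0.038 to 0.10 for Hif1a, -0.28 to 0.066 for Kdm3a, -0.19 to 0.36 for Vegfa, -0.75 to 0.063 for Ddit4, -0.020 to 0.34 for Slc16a3, -0.12 to 0.56 for Pfkfb3 and -0.22 to 0.21 for Pdk1. The causes were not tested.

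Same-numbered tumors of the groups deviated from their group means with correlations of -0.172, -0.110 and -0.308, and other pairs with -0.218 to 0.354. Deviations within a group sum to 0, which ties these correlations to one another, and few pairs share a number. The same-numbered values were all negative, and they do not settle whether the tumor numbers mark a pairing. With the tumor number as a replicate block 0 genes passed, 645 genes had an unadjusted p under 0.05 and Pdk1 was at -0.037.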
